A study of Mus musculus with 2 samples.

Results

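Interleukins and their receptors were followed in liver RNA from a Drp1 knockout and a wild type sample of mice kept on a high-fat diet. The members are the genes of all non-control probes whose name on the array starts with Il and a digit. They number 83 of the 30153 gene names on the array, measured by 105 of its 39429 gene probes. The rule works on names alone, so it also takes in Il4i1, an enzyme that oxidises amino acids, and it leaves out cytokines of the same families that carry other names.

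The labels describe 1 sample as a knockout of Drp1, a GTPase needed for mitochondria to divide, and the other as wild type. Both groups were male C57BL/6J mice. From the age of 4 weeks they ate a lard diet for 24 weeks, in which fat was 24% of the diet and gave 45% of the calories. The study's title places the disruption in the liver; the promoter that drove it and the deleted part of the gene are not given in the sources used here. Each group was 1 array, both on 1 slide, and the labels do not say whether an RNA sample came from 1 animal or a pool, or whether the mice were taken after the 17-hour fast or after 4 hours of refeeding.

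Interleukins are secreted signals that mostly act between immune cells, and most of them are made in small amounts until cells are activated. Receptors of the Il6, Il2, Il10 and Il12 families signal through Jak kinases and Stat transcription factors, while those of the Il1 and Il17 families use adaptor proteins that lead to NF-kappaB. In the liver, hepatocytes carry Il6 and Il1 receptors and answer with acute phase proteins, and Kupffer cells, lymphocytes, stellate cells and endothelium carry many of the others.

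A level is the brightness of a probe as a multiple of the 75th percentile of its array's gene spots. Levels of different probes cannot be compared, so comparisons of levels below are between the 2 arrays for the same probes. A summed level adds the levels of a list's genes measured on both arrays. It is weighted towards the brightest probes, so it can differ in direction from the list's median. Differences are log2 values, knockout minus wild type, or folds, and 1.5-fold was the threshold for calling a gene higher or lower. With 1 array a group there is no replicate check and no test. Repeated spots of 241 probes well above background on both arrays gave a difference an SD of 0.14 log2 units, which leaves out the spread between animals. Spots of dim probes can spread more. For Il10, Il12b and Il4, all below background, spot SDs on an array ran from 0.23 to 1.28, so 0.14 may be too small for dim genes. All 6 hepatocyte markers (Alb, Apoa1, Ttr, Serpina1c, Cyp2e1 and Cps1) were well above background on both arrays; a gene is called detected below where at least 50% of a probe's spots were so marked. The single probe of Dnm1l, the gene of Drp1, read 1.75 in the knockout and 2.03 in the wild type, and does not check the label, since the deleted part is unknown. Of the gene probes, 57.1% were detected in the knockout and 50.6% in the wild type, and the lowest such level was 0.0368 in the knockout against 0.0593 in the wild type.

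Few interleukins were measurable in these livers, and most of what was measurable were receptor chains. Of the 83 members, 29 (34.9%) were detected on both arrays, against 51.0% of all genes. A further 11 (13.3%) were so on the knockout array alone, against 7.19% of all genes, and 0 on the wild type array alone, against 1.24%. The part that the lower detection limit of the knockout array has in those 11 was not tested. The other 43 members (51.8%) were below background on both arrays, against 40.5% of all genes. By kind, 19 of 40 receptor and receptor-like chains were measured on both arrays, but only 8 of 39 ligands. Il6, Il10, Il4, Il13, Il5, Il2, Il17a, Il17f, Il12a, Il21 and Il1a were among the 27 ligands below background on both.

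**Figure D1:**
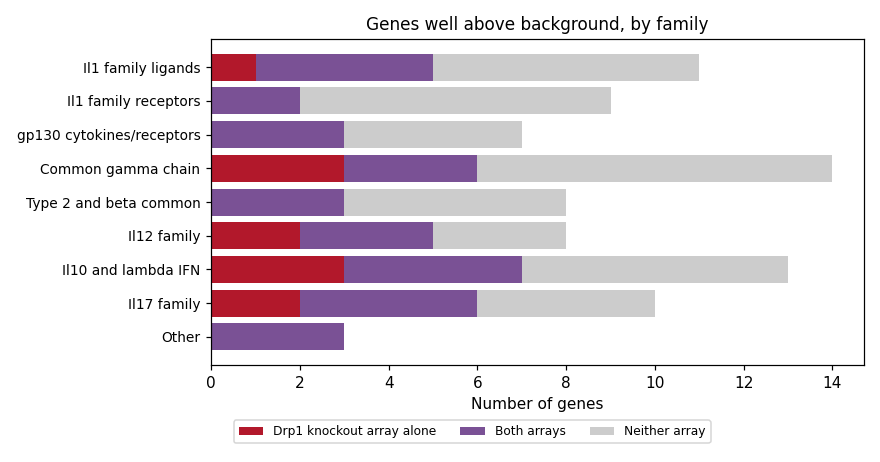
Number of interleukin system genes in each family (bars, x axis in genes) that were detected on the knockout array alone, on both arrays or on neither. The grey part, genes on neither array, makes up 43 of 83 genes, and the 11 genes seen on the knockout array alone belong to 5 families.

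Among the 29 members measured on both arrays, 5 were higher in the knockout by 1.5-fold or more (17.2%, against 8.42% of all 15385 measured genes), 3 were at least 1.5-fold lower (10.3%, against 13.4%) and 21 lay between. Past 2-fold, 1 member was higher and 1 lower (3.45% each), against 2.91% and 3.64% of all measured genes in those directions. Il10rb, Il17rb, Il2rg, Il17ra and Il34 were higher, and Il17d, Il27 and Il12rb2 were lower. The median difference of the members was -0.05, and that of all measured genes -0.11. After loess normalization the counts were 5 higher and 2 lower, and with arrays scaled to spike-in spots 15 and 0. Normexp correction gave 2 higher and 3 lower, and leaving out more of the dim probes gave 2 and 1 among 16 members. The spike-in scale adds 0.77 to every gene, so taking that shift away returns the 5 and 3 of the main setting by construction. Relative to its own shift of 0.08, quantile normalization gave 4 higher and 5 lower. Over all genes, 38.6% of calls were in the higher direction, against 50.8% after loess and 97.7% on the spike-in scale. The 19 measured receptor chains had a median of 0.04 and the 8 measured ligands one of -0.45. In bulk liver RNA, fewer cells of a type and less RNA per cell cannot be told apart.

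**Figure D2:**
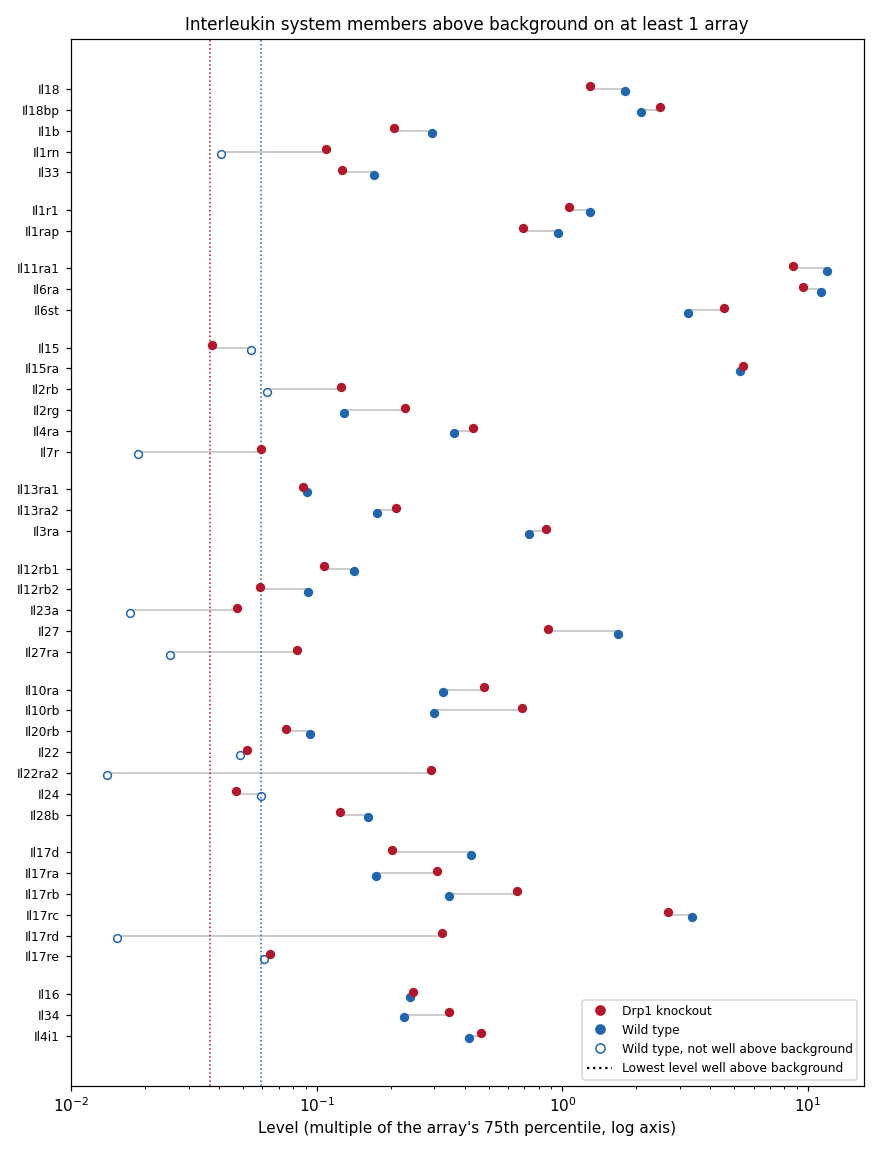
Level of each detected member on the knockout array (red) and the wild type array (blue), on a log axis in multiples of the array's 75th percentile, grouped by family; open symbols were not well above background and dotted lines mark the lowest level well above background. Il17rd and Il22ra2 show the widest gaps, at 0.323 and 0.291 on the knockout array with wild type signals not well above background.

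**Figure D3:**
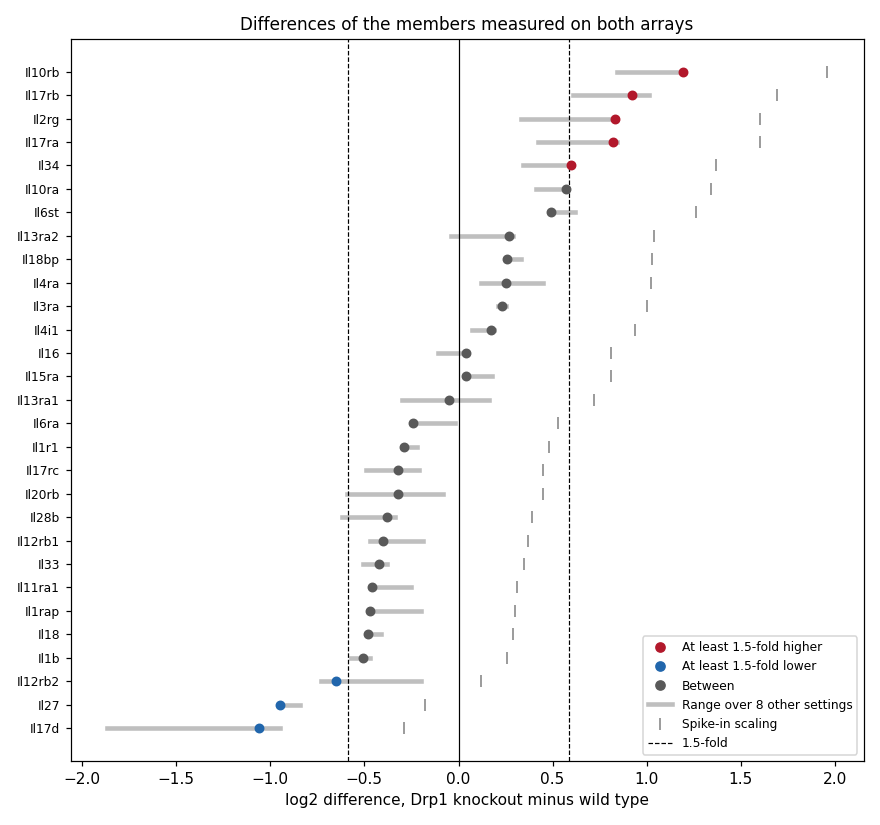
Log2 difference, knockout minus wild type, of the 29 members measured on both arrays (points), with the range over 8 other settings (grey bars), the value on the spike-in scale (ticks) and the 1.5-fold limits (dashed). Points run from 1.19 for Il10rb to -1.06 for Il17d, and 26 of 29 kept their sign in those of the 8 settings that could measure them. Settings that only filter or pick probes leave members with 1 probe unchanged. On the spike-in scale the points lie further to the right.

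The Il17 family held members in both directions. Il17rd, a receptor-like protein also known as Sef that restrains signalling by fibroblast growth factor receptors, was detected on the knockout array alone. Its level was 0.323 in the knockout against a signal of 0.0154, not well above background, in the wild type, so it was at least 5.45-fold higher in the knockout. Of the 11 members seen on the knockout array alone, 4 passed 1.5-fold by such a lower bound, as did 566 of 2168 such genes overall (26.1%), and Il17rd had the greatest bound of the 4. Normexp background correction brought its log2 bound down to 1.17, against 2.45. The first 30 bases of its probe are shown because the value rests on this probe alone, with the 60-base probe at chr14:27920311-27920370 (mm9, plus strand), position 8058 of the transcript:
Il17rd: atagcactgtgccatatttttacattggcg

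Il17ra, the chain shared by the receptors of several Il17 cytokines, read 0.309 in the knockout and 0.174 in the wild type, 1.77-fold higher in the knockout. Its difference was 0.42 under normexp correction, against 0.82, and was then under 1.5-fold. Il17rb, which binds Il25 and Il17b, read 0.654 in the knockout and 0.345 in the wild type, 1.89-fold higher in the knockout. A second Il17rb probe read 0.0631 in the knockout against 0.0295, not well above background, in the wild type, the same direction. Il17rc, the partner of Il17ra for Il17a and Il17f, read 2.70 in the knockout and 3.36 in the wild type, a difference of -0.32 with probes at -0.49 and -0.14. Il17re, a receptor of Il17c, read 0.0646 in the knockout and 0.0609 in the wild type, where it was not well above background. The ligands Il17a, Il17b, Il17c, Il17f and Il25 were below background on both arrays, leaving Il17d as the 1 ligand of the family that was detected.

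Il17d, a secreted member of the family, was 2.09-fold lower in the knockout, at 0.203 against 0.423 in the wild type, but its probes disagreed in size. The probe at position 1149 read 0.254 in the knockout and 0.926 in the wild type, 3.64-fold lower, while the probe at position 636 read 0.162 in the knockout and 0.193 in the wild type, 1.19-fold lower. Both point the same way, yet only the first passed 1.5-fold. The 2 probes are set side by side because they lie on the same transcript, at chr14:58161418-58161477 and chr14:58161931-58161990 (mm9, plus strand), and do not overlap; the first 30 bases of each are:
Il17d at position 636: gcgaactccagcatggacaagctgctgctg
Il17d at position 1149: gcgcccctttgttctttagcttatggatgg
Skeletal muscle markers moved with this value. Of 9 listed, 7 (Acta1, Tnnc2, Tnnt3, Tcap, Myh4, Myh8 and Ckm) were detected in the wild type alone, by lower bounds of 6.71-fold to 88.1-fold, and Mylpf and Actn3 on neither, so no summed level over both arrays can be given. Tnnc2 read 0.0352 in the knockout, not well above background, against 3.25 in the wild type. Of 7 adipocyte markers, 3 were measured on both arrays, with a summed level of 3.07 in the knockout and 10.9 in the wild type. Cfd was 33.6-fold lower and Cidea 8.67-fold lower, while Fabp4 read 2.45 in the knockout and 2.43 in the wild type. Adipoq, Plin1, Lep and Retn were below background on both. The part of the muscle and adipocyte markers in the Il17d value was not tested.

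In the Il10 family, a shared receptor chain and a decoy were higher in the knockout. Il10rb, the chain that Il10, Il22 and the lambda interferons have in common, read 0.681 in the knockout and 0.299 in the wild type, 2.28-fold higher in the knockout. Its difference of 1.19 was past 1.5-fold in each of 9 alternative settings, from 0.84 to 1.96, but not all of these could change it. Settings that filter or pick probes leave the value of a gene with 1 probe as it was, and spike-in scaling adds the same amount to every gene. The difference was 1.16 after quantile normalization, 1.17 after loess and 0.84 under normexp correction. Il10ra, the chain specific to Il10, read 0.481 in the knockout and 0.325 in the wild type, or 1.48-fold, just under the threshold. Il22ra2, a soluble protein that binds Il22 and keeps it from its receptor, read 0.291 in the knockout against 0.0139, not well above background, in the wild type, and was at least 4.92-fold higher in the knockout. Under normexp correction its log2 bound was 1.16, against 2.30. Stretches of both probes are shown, as each gene was measured by 1 probe, at chr16:91425744-91425803 for Il10rb and chr10:19354355-19354414 for Il22ra2 (mm9, plus strand):
Il10rb: gtaatttgagccctttgtgctcactaaaac
Il22ra2: gctttgactttgtttgcttgggttttccct

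Other members of this family gave little signal. Il22 itself read 0.0519 in the knockout and 0.0484 in the wild type, where it was not well above background, and was too dim for a fold. Il24 read 0.0468 in the knockout and 0.0591 in the wild type, again with the wild type signal not well above background and no fold to give. Il20rb, a chain of the Il20 receptors, read 0.0750 in the knockout and 0.0936 in the wild type. For Il28b, a lambda interferon now named Ifnl3, 1 of 2 probes was measured, at 0.124 in the knockout and 0.162 in the wild type; it has a near-identical neighbour, so its value is uncertain. Il10, Il19, Il20, Il20ra, Il22ra1 and Il28ra (now Ifnlr1) were below background on both arrays. A probe with another name, given under Other observations, also bears on Il22ra1.

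The 3 genes of the Il12 family measured on both arrays read lower in the knockout, although Il12rb1 and Il12rb2 read higher on the spike-in scale. Il27, the cytokine subunit that pairs with Ebi3, read 0.871 in the knockout and 1.68 in the wild type, 1.93-fold lower in the knockout. Its difference lay between -0.95 and -0.84 in 8 alternative settings and at -0.18 on the spike-in scale, where the median gene stood at 0.66. As Il27 has 1 probe, the settings among the 8 that filter or pick probes could not change its value. Ebi3 itself read 0.482 in the knockout and 0.391 in the wild type, a difference of 0.30, so only the Il27 subunit was past the threshold. Il27ra, the receptor, read 0.0830 in the knockout against 0.0253, not well above background, in the wild type, and was at least 1.40-fold higher in the knockout. That bound, 0.49 on the log2 scale, was 0.0 under normexp correction, where no direction can be given. Il12rb2, the inducible chain of the Il12 receptor, read 0.0584 in the knockout and 0.0916 in the wild type, 1.57-fold lower, near the dim end of the scale. That value was -0.35 after loess normalization and -0.20 with its second, below-background probe included, against -0.65, so the call rests on the settings; it was 0.12 on the spike-in scale, 0.77 above its main value like all genes. Il12rb1, its partner, read 0.107 in the knockout and 0.141 in the wild type, or 1.32-fold lower. Il23a, a subunit of the cytokine Il23, read 0.0474 in the knockout and 0.0174, not well above background, in the wild type, with no fold to give. Il12a and Il12b, the Il12 subunits, and Il23r were below background, although 1 of 9 knockout spots and 3 of 10 wild type spots of Il12b were marked well above it.

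The Il1 family ligands and receptors measured on both arrays read lower in the knockout, none of them by 1.5-fold, and read higher on the spike-in scale. Il1b, a main cytokine of macrophages and neutrophils, had 10 spots on each array. Its spots ran from 0.182 to 0.240 with a median of 0.210 on the knockout array, and from 0.270 to 0.334 with a median of 0.296 on the wild type array. The mean difference was -0.51, or 1.42-fold lower, with spot SDs of 0.13 in the knockout and 0.09 in the wild type, which describe the arrays and not mice. Il18, a cytokine that Kupffer cells make and that needs cleavage by caspase-1, read 1.29 in the knockout and 1.80 in the wild type, or 1.40-fold lower. Il33, an alarmin stored in nuclei, read 0.127 in the knockout and 0.170 in the wild type, or 1.34-fold lower. These 3 ligands thus shared a direction at sizes under the threshold.

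The Il1 antagonists read the other way. Il1rn, the receptor antagonist that blocks Il1 signalling, read 0.109 in the knockout against 0.0407, not well above background, in the wild type, and was at least 1.85-fold higher in the knockout. Under normexp correction the log2 bound of Il1rn was 0.14, against 0.88. Il18bp, which binds and neutralises Il18, read 2.49 in the knockout and 2.08 in the wild type, or 1.2-fold higher. Neutrophil markers stood beside the Il1b value, with 4 of 6 measured markers at least 1.5-fold lower and a median of -0.87. Over all measured genes, 13.4% were lower and 8.42% higher, the shares to set beside the marker counts here and below. Retnlg, S100a9, S100a8 and Camp were lower by 1.62 to 3.02-fold, and Ly6g differed by 0.08. The summed level was 66.4 in the knockout and 93.3 in the wild type. Most of it came from Csf3r, with 63.8 in the knockout and 88.4 in the wild type. Mmp8, Mmp9, Ltf, Ngp and Cxcr2 were below background on both arrays. Macrophage markers past 1.5-fold ran the other way, with 6 of 15 higher, 0 lower and a list median of 0.25. Trem2 and Gpnmb led at 5.38-fold, with Marco, Cd14 and Lyz2 next. Others lay between, among them C1qa at 0.10, Vsig4 at 0.16, Clec4f at -0.16 and Timd4 at -0.42. The summed level of macrophage markers was 117 in the knockout and 92.9 in the wild type. The part of these cells in the Il1 values was not tested.

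Il1r1, the signalling receptor of Il1, read 1.06 in the knockout and 1.30 in the wild type, or 1.23-fold lower. Il1rap, its accessory chain, read 0.689 in the knockout and 0.958 in the wild type over its 2 measured probes, or 1.39-fold lower. The probes of Il1rap target different transcripts, and liver is known to make a short, secreted form of this protein. The probe at position 1409, which the array describes as transcript variant 2, read 5.82 in the knockout and 7.90 in the wild type. The probe at position 3256, described as transcript variant 1, was below background on both arrays. Another probe, for an Ensembl transcript, read 0.0816 in the knockout and 0.116 in the wild type. The first 30 bases of the probes at positions 1409 and 3256, at chr16:26701498-26701557 and chr16:26716515-26716574 (mm9, plus strand), show that they measure separate parts of the gene:
Il1rap at position 1409: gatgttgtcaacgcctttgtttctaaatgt
Il1rap at position 3256: catacatctttcagtagtcattggcaaaat
The decoy receptor Il1r2, the Il33 receptor Il1rl1, both Il18 receptor chains and Il1a were below background on both arrays, as were Il1rl2, Il1rapl1, Il1rapl2 and the 5 genes with Il1f names.

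The receptors of Il6 and Il11 were detected on both arrays and differed by less than 1.5-fold. Il6ra, which binds Il6, read 9.56 in the knockout and 11.3 in the wild type, or 1.18-fold lower. Il11ra1, which binds Il11, read 8.69 in the knockout and 12.0 in the wild type, or 1.38-fold lower; mice carry a near-identical Il11ra2, so the probe may read both. Il6st, the gp130 chain through which both signal, read 4.53 in the knockout and 3.23 in the wild type, or 1.40-fold higher. Its difference of 0.49 was 0.61 after quantile or loess normalization and 0.62 in the deposited value table, and so passed 1.5-fold there. Il6 and Il11 themselves were below background on both arrays, as were Il31 and its receptor chain Il31ra.

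Of the 3 members of the common gamma chain group measured on both arrays, 1 was higher in the knockout by 1.5-fold or more, and 1 of the 3 seen on the knockout array alone was so by its lower bound. Il2rg, the common gamma chain itself, read 0.229 in the knockout and 0.129 in the wild type, 1.77-fold higher in the knockout. Its difference was 0.33 under normexp correction, against 0.83, and was then under 1.5-fold. Il2rb, the signalling chain for Il2 and Il15 on T and NK cells, read 0.125 in the knockout against 0.0625, not well above background, in the wild type, and was at least 2.0-fold higher, a log2 bound of 1.0 that was 0.07 under normexp correction. Il7r, on lymphocytes, read 0.0591 in the knockout against 0.0187, not well above background, in the wild type, too dim for a fold against the detection limit. Of 11 T cell markers 10 were matched, and those measured differed both ways beside these receptors, with 3 of 7 measured at least 1.5-fold higher (Cd3d, Cd2 and Cd5), 2 lower (Cd6 and Cd3e) and a median of 0.56. Cd3g and Cd8b1 were detected on the knockout array alone, Cd3g at least 2.41-fold higher and Cd8b1 too dim for a fold, and Cd8a was below background on both. The summed level of the 7 was 17.9 in the knockout and 21.4 in the wild type, of which Cd4 made up 15.4 in the knockout and 18.5 in the wild type. Of 9 NK cell markers, 3 were measured on both arrays, 1 of them (Gzma) was at least 1.5-fold higher, their median was 0.33, and the summed level was 1.45 in the knockout and 1.11 in the wild type. Gzmb, detected on the knockout array alone, was at least 2.15-fold higher, and Ncr1, Klrb1c, Klrk1, Klre1 and Eomes were below background on both. Their part in the receptor values was not tested.

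Il15ra, which presents Il15 to other cells, read 5.41 in the knockout and 5.26 in the wild type over its 2 probes, a difference of 0.04. The probe at position 724 read 1.04 on both arrays, and the probe at position 1277 read 28.2 in the knockout and 26.5 in the wild type. The probe at 1277 holds a run of 17 alternating T and G bases, in capitals below, and only 2 of the 105 member probes hold a dinucleotide run of 10 bases or more, the other being a probe of Il4ra. Bases 1 to 30 of the first and 25 to 54 of the second (whole probes at chr2:11654809-11654868 and chr2:11655416-11655475, mm9, plus strand) are:
Il15ra at position 724: aaaccatggaaacagtaccaatgactgtga
Il15ra at position 1277: atatgtaTGTGTGTGTGTGTGTGTatgtaa
Whether that probe reads other transcripts with such runs was not tested. Il15 itself read 0.0373 in the knockout and 0.0540 in the wild type, detected on the knockout array alone although the signal was lower there. Il4ra, shared by Il4 and Il13, read 0.431 in the knockout and 0.362 in the wild type, or 1.19-fold higher, with probes at 0.05 and 0.45. Il2, Il4, Il7, Il9, Il21, Il2ra, Il9r and Il21r were below background on both arrays.

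Receptors linked to type 2 cytokines and the beta common family differed little. Il13ra1, which pairs with Il4ra, read 0.0878 in the knockout and 0.0912 in the wild type. Il13ra2, a decoy for Il13, read 0.210 in the knockout and 0.175 in the wild type. Il3ra, the Il3 receptor chain, read 0.858 in the knockout and 0.731 in the wild type, or 1.17-fold higher. All 3 differed by less than 1.5-fold, and Il3, Il5, Il5ra, Il13 and Il25 were below background on both arrays.

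Of the remaining members, Il34 passed the threshold narrowly. Il34, a second ligand of the macrophage receptor Csf1r, read 0.344 in the knockout and 0.227 in the wild type, 1.51-fold higher in the knockout. The difference of 0.60 was 0.58 after loess, 0.55 after quantile normalization, 0.57 in the deposited value table and 0.34 under normexp correction, all under 1.5-fold. Csf1r read 3.27 on both arrays, and Csf1, its other ligand, read 0.236 in the knockout and 0.186 in the wild type. Il16, a lymphocyte chemoattractant, read 0.246 in the knockout and 0.240 in the wild type, and Il4i1 read 0.467 in the knockout and 0.415 in the wild type.

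Downstream of these receptors, genes of the Jak, Stat and Socs lists past 1.5-fold went both ways. Over all measured genes, 8.42% were higher and 13.4% lower, the shares to set beside these lists and those that follow. Of 9 measured Jak and Stat genes, 1 was at least 1.5-fold higher and 1 lower, with a list median of -0.09. Stat3, the main mediator of Il6 in hepatocytes, read 0.689 in the knockout and 1.13 in the wild type, 1.64-fold lower, with both probes between -0.75 and -0.67. Tyk2, the kinase bound to Il10rb and to Il12rb1, read 0.917 in the knockout and 0.563 in the wild type, 1.63-fold higher. Jak1 read 8.54 in the knockout and 8.28 in the wild type. Of 13 measured Socs, Pias and phosphatase genes, 1 was higher and 3 were lower, and their median was -0.11. Socs3, the Il6-induced brake, was 2.00-fold lower, at 1.62 in the knockout and 3.25 in the wild type. Socs2 was 3.12-fold lower and Cish 2.22-fold lower, both brakes on growth hormone and cytokine receptors, while Socs6 was 1.91-fold higher. Socs5, detected on the knockout array alone, was at least 1.63-fold higher.

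Genes that act after Il1, Toll and Il17 receptors also split. Of 16 measured Il1 and Toll adaptors, 2 were higher and 2 were lower, and their median was -0.08. Nfkbiz, an NF-kappaB cofactor induced by Il1 and Il17, read 0.113 in the knockout and 0.514 in the wild type, 4.55-fold lower. Tnfaip3, the A20 enzyme that ends NF-kappaB signalling, read 0.557 in the knockout and 0.196 in the wild type, 2.84-fold higher. Sigirr, an inhibitory receptor of the Il1 family, was 1.77-fold lower, Ikbkg was 1.87-fold higher, and Irak3, an inhibitory kinase seen on the knockout array alone, was at least 1.86-fold higher. Of 5 measured Il17 adaptors, 2 were higher and 0 were lower, and their median was 0.55. Traf3ip2, known as Act1 and bound directly by Il17 receptors, read 0.162 in the knockout and 0.0801 in the wild type, 2.02-fold higher. Its wild type level was near the lowest level well above background there, 0.0593. Tbk1 was 1.77-fold higher. Single genes of the pathway and marker lists were followed in the main setting alone, so how their folds hold under other processing was not tested. Of 8 measured inflammasome genes, which process Il1b and Il18, 1 was higher and 0 lower: Casp4 read 1.41 in the knockout and 0.565 in the wild type, 2.50-fold higher, while Casp1 read 1.27 in the knockout and 1.18 in the wild type and Nlrp3 was below background on both arrays.

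Among 18 measured cytokines and receptors of the same families with other names, 1 was higher (Csf2rb2, at 1.5-fold) and 1 lower, and the list's median was -0.01. Lifr, a receptor that pairs with Il6st, read 1.30 in the knockout and 3.60 in the wild type, 2.78-fold lower. Its ligand Lif, detected in the wild type alone, was at least 3.23-fold lower, at 0.0217 in the knockout against 0.119 in the wild type. Osmr, the other partner of Il6st in hepatocytes, read 0.638 in the knockout and 0.438 in the wild type, a difference of 0.54. Acute phase genes that Il6-type cytokines induce were at least 1.5-fold lower for 11 of 25 measured and higher for 2, with a median of -0.57, for a list chosen with earlier results on these arrays known. Over all measured genes 13.4% were lower, the 6 hepatocyte markers had a median of -0.56, and the tenth of all genes with the highest levels had one of -0.30, and no difference between these sets was tested. Saa1 was 4.33-fold lower, Saa2 3.94-fold, Saa4 2.94-fold and Itih4 2.31-fold, whereas Apcs was 1.92-fold higher and Cebpd 1.82-fold higher.

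**Figure D4:**
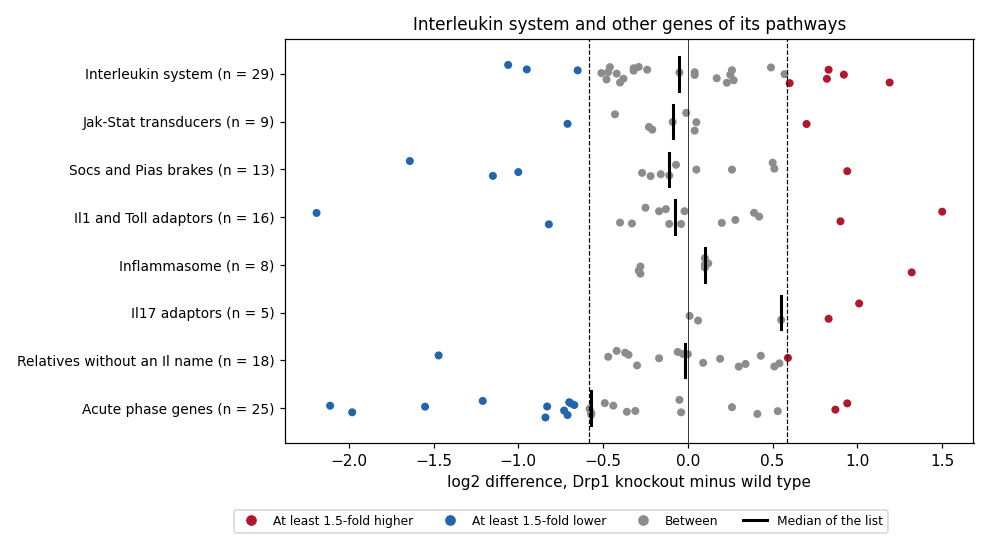
Log2 difference, knockout minus wild type, of the measured genes of the interleukin system and of 7 lists of other genes in its pathways (points), with each list's median (black bars) and the 1.5-fold limits (dashed). The interleukin system spreads to both sides of a median of -0.05, and the acute phase genes lie lowest with a median of -0.57.

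Markers of other cells in the liver also differed between the arrays. Stellate cell and fibroblast markers were higher for 7 of 10 (led by Col1a1, Pdgfra, Lum, Col1a2 and Col3a1 at 2.42 to 3.19-fold), with 1 lower, a median of 1.06 and a summed level of 71.3 in the knockout and 48.0 in the wild type. Sinusoidal endothelial markers were higher for 2 of 8 (Lyve1 and Pecam1), with 0 lower and a median of 0.21. Their summed level was 40.6 in the knockout and 43.2 in the wild type, of which Clec4g made up 28.3 in the knockout and 31.0 in the wild type. Of 6 bile duct markers, 3 were measured on both arrays and 2 were higher (Spp1 and Sox9), with a summed level of 1.02 in the knockout and 0.447 in the wild type. Cftr, detected in the wild type alone, was at least 2.21-fold lower, Krt7 was detected in the knockout alone with no fold to give, and Epcam was below background on both. Of 6 B cell markers, 3 were measured and 1 was higher (Jchain, 2.29-fold), with a summed level of 1.17 in the knockout and 0.683 in the wild type and Pax5 below background on both. Ms4a1, detected on the knockout array alone, was at least 1.29-fold higher. Mast cell markers were mostly silent, with 4 of 6 (Cpa3, Mcpt4, Cma1 and Fcer1a) below background on both and a summed level of 0.677 in the knockout and 0.658 in the wild type. Of the 6 hepatocyte markers, 1 (Cps1) was higher and 3 (Ttr, Serpina1c and Cyp2e1) were lower by 1.51 to 1.55-fold, with a summed level of 1750 in the knockout and 2550 in the wild type.

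Many interleukin genes sit side by side in the genome, and few of those neighbours were measured. By the order of protein-coding genes in RefSeq, with at most 2 other genes between neighbours, 39 members fell into 14 groups, and 7 of these 39 were measured on both arrays, 4 on the knockout array alone and 28 on neither. Outside such groups, 22 of 44 members were measured on both, against 51.0% of all genes. Whether neighbouring genes in general are measured less often was not tested. In the group of 6 receptors on chromosome 1 only Il1r1 was measured, and in the group of 6 Il1-like ligands and antagonists on chromosome 2 only Il1rn was detected, on the knockout array. Il22ra2 lies close to Il20ra on chromosome 10, which was below background on both arrays.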

How the data were processed

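The authors' deposited scanner files hold spot intensities from 1-colour Agilent arrays, background-subtracted and spatially detrended by Agilent Feature Extraction, per the file headers; the headers give version 10.7.1.1, and 9.5.1.1 stands in the submitters' processing notes. The deposited value table also holds intensities on a linear scale.

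Of 44397 spots, 1377 were controls. Outlier spots (190 knockout, 183 wild type) were left out. Signals were divided by the array's 75th percentile and log2-transformed, and spots of a probe were averaged. A probe counted as measured with at least 50% of its spots marked well above background. For a gene, the differences of all probes measured on both arrays were averaged. Where only 1 array measured a gene, "at least N-fold" sets the bright level against the higher of the dim signal and the lowest level well above background on the dim array. Other genes were named through RefSeq (GRCm38.p6, names and order only). Positions of probes come from the scanner files (mm9).

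No test between groups was possible with 1 array each, and precision is limited by the number of arrays. The members, lists and thresholds were chosen with earlier results of these data known. All members are accounted for. Of each list, up to 5 genes past 1.5-fold were to be named. Jak1, Casp1, Nlrp3, Csf1r, Csf1, Ebi3, Osmr, Irak3, Socs5, Fabp4, Ly6g, C1qa, Vsig4, Clec4f and Timd4 were added after their values were seen. Alternatives were quantile, median, loess (span 0.3) and E1A spike-in scaling, normexp correction (offset 50, limma 3.58.1), 2 other filters on dim probes, taking only a gene's brightest probe, and the deposited table.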

Additional observations from a re-analysis of the deposited data

How the results depend on the processing

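No paired analysis was possible because each group has 1 array, and for the same reason no array could be left out. Beside 5 members higher, 3 lower and a median of -0.05, with 1296 genes higher and 2060 lower over the whole array, spike-in scaling gave 15, 0 and 0.72 for the members and 8808 and 211 for all genes. Since that scale adds 0.77 to every gene, 13 of the 15 members with a negative difference were positive on it, among them Il12rb2 at 0.12, the 1 called member whose sign turned. Normexp correction left 2 members and 658 genes higher. Without the filter on dim probes, which adds genes below background, 13 members were higher, 33 were lower and the median was -0.40, and 3164 genes were higher and 11307 lower. The stricter filter measured 16 members, with 2 higher, 1 lower and a median of 0.11. Those called were Il10rb, Il17rb and Il27, at the same values as in the main setting, and it did not measure the other called members. Of the 11488 genes it measured, 655 were higher and 1269 lower. The cause of the other changes was not tested. In the 8 settings other than spike-in scaling, 26 of 29 members kept their sign, and Il13ra1, Il13ra2 and Il16 did not. Settings that only filter or pick probes cannot change the value of a member with 1 probe, so its sign could not turn there. Signal over background limits the 43 members that neither array measured.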

Other observations

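One probe outside the rule bears on the Il22 receptor. The array names it 9130219A07Rik, and RefSeq gives its accession to Il22ra1, the chain that pairs with Il10rb to bind Il22. It read 0.151 in the knockout against 0.0543, not well above background, in the wild type, at least 2.54-fold higher in the knockout, while the probe that carries the name Il22ra1 was below background on both arrays. It was chosen after its value was seen.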
